A study of Caenorhabditis elegans with 4 samples.

Results

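The cytosolic ribosomal protein genes were taken as every row of the QuantSeq count table whose gene name begins with rps-, rpl- or rla-, the nematode prefixes for proteins of the small subunit, of the large subunit and of the acidic stalk of the large subunit. This rule gave 78 of the 14463 genes in the table, 31 of the small subunit (rps-) and 47 of the large subunit (44 rpl- and 3 rla-). The name alone chose them, with no use of any measured value. The rule takes 81 genes of the annotation, and rpl-41.1, rpl-41.2 and rpl-42 were not analysed here.

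A ribosome is built from a small subunit, which holds the mRNA and reads its codons, and a large subunit, which joins amino acids and lets the growing chain out through a tunnel. Each subunit is a core of ribosomal RNA coated with proteins that are needed in matched amounts, so their mRNAs are among the most abundant and most evenly expressed of an animal cell. Muscle cells of the embryo also depend on them to build the contractile apparatus.

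The study asked how loss of the muscle microRNA miR-1 alters gene expression in muscle of Caenorhabditis elegans. Body-wall muscle cells were marked by YFP under the myo-3 promoter (lucEx1207(myo-3p::YFP), carried by both genotypes), and 5000 YFP-positive cells of embryos at the 1.5-fold stage were sorted for each library, after eggs had been incubated until most embryos had reached that stage. There were 2 libraries of the wild type (strain MLC2232) and 2 of the deletion mutant mir-1(luc108) (strain MLC2277), called #1 and #2 in each genotype. QuantSeq reads the 3′ end of each polyadenylated RNA, and unique molecular identifiers (UMIs) mark the original molecules, so a count stands for a transcript end and is not divided by transcript length. The study calls the libraries of a genotype biological duplicates, but neither it nor the labels say that they came from separate cultures, so p-values measure only the spread between these libraries, which may be technical in part. The mature microRNA itself was not analysed here.

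The libraries held 245336 and 424968 UMI counts in the wild type and 453341 and 343227 in the mutant. All 78 ribosomal protein genes passed the filter on low counts, as did 5111 genes in all. Levels are given as CPM, the counts of a gene scaled to a common library total with TMM factors over the genes tested, and fold changes as log2 of mir-1(luc108) over wild type. Sums of markers are instead CPM of the whole library total, without TMM factors. The label of the cells was checked with 10 body-wall muscle markers, all of which were detected. They summed to 25936 and 23378 CPM in the wild type and to 18414 and 14442 CPM in the mutant, and all 10 were lower in the mutant (median log2 fold change −0.58). Neuron markers summed to 457 and 558 CPM in the wild type and to 697 and 533 CPM in the mutant, and all 5 tested were higher in the mutant (median 0.17). Pharynx markers summed to 232 and 419 CPM and to 269 and 233 CPM, with 3 of 4 tested lower (median −0.46). Markers of hypodermis summed to 3935 to 4216 CPM (5 of 7 lower), of intestine to 110 to 374 CPM (2 of 3 higher), and of germline to 16.5 to 29.1 CPM (none tested). Fewer muscle cells among those sorted and less of these mRNAs per muscle cell cannot be told apart in such samples. The part of these markers in the ribosomal protein values below was not tested.

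The 78 genes took a large share of all mRNA molecules counted. It was 19.0% in wild type #1, 21.6% in wild type #2, 20.3% in mir-1(luc108) #1 and 23.6% in mir-1(luc108) #2. The 95% Wilson intervals were 18.9 to 19.2%, 21.5 to 21.7%, 20.2 to 20.5% and 23.4 to 23.7%, and they cover counting error only. The higher library of each genotype was #2, and the genotypes overlapped, since wild type #2 lay above mir-1(luc108) #1. The means were 20.3 ± 1.82% in the wild type and 21.96 ± 2.28% in the mutant (SD, n = 2), a difference of 1.63 percentage points that is smaller than the SD of the mutant. No label permutation of 2 against 2 libraries can reach a p of 0.05, so this share was not tested. Taking the 10 most abundant other genes out of the denominator gave 20.8, 23.2, 21.8 and 25.19% and left the order of the libraries as it was.

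**Figure D1:**
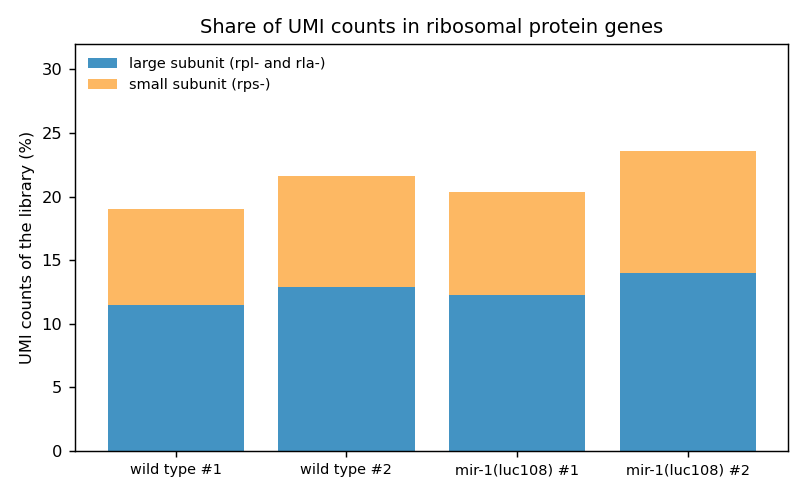
Stacked bars give the percent of the UMI counts of each of the 4 libraries that fell in large subunit genes (blue, rpl- and rla-) and small subunit genes (orange, rps-). The whole bars run from 19.0% in wild type #1 to 23.6% in mir-1(luc108) #2, and the orange part is close to the same proportion of every bar.

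The balance between the subunits was nearly the same in every library. Small subunit genes took 7.61, 8.75, 8.11 and 9.55% of the counts, and large subunit genes 11.4, 12.9, 12.2 and 14.02%, in the order wild type #1, wild type #2, mir-1(luc108) #1 and mir-1(luc108) #2, which is the order used for every list of 4 values from here on. The ratio of small to large subunit counts was 0.665, 0.680, 0.663 and 0.681. Library #2 had the higher ratio in both genotypes. The ratio averaged 0.672 ± 0.0104 in the wild type and 0.672 ± 0.0130 in the mutant (SD, n = 2), and the difference of −0.00041 was far inside the spread between libraries. The median small subunit gene stood at 2301, 2779, 2356 and 2863 CPM and the median large subunit gene at 2310, 2587, 2347 and 2513 CPM.

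Most of the individual genes lay near the top of the table. The mean level over the 4 libraries had a median of 2476 CPM (2592 for the small and 2428 for the large subunit), against 65.6 CPM for all genes tested. Of the 50 most abundant genes 32 were ribosomal protein genes, as were 58 of the 100 and 76 of the 200 most abundant. Over all 78 genes the levels spanned a 102-fold range, from 78.9 CPM for rpl-11.1 (rank 2154 of the genes tested) to 8050 CPM for rpl-29 (rank 6). Without rpl-11.1 and rpl-24.2 (rank 574), the other 76 genes spanned a 9.64-fold range, from 835 CPM for rla-0. The order of the levels was shared by all libraries, with a Pearson r of log2 CPM over the 78 genes between 0.982 and 0.994 for the 6 pairs of libraries. These are correlations across genes, which are not independent replicates.

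**Figure D2:**
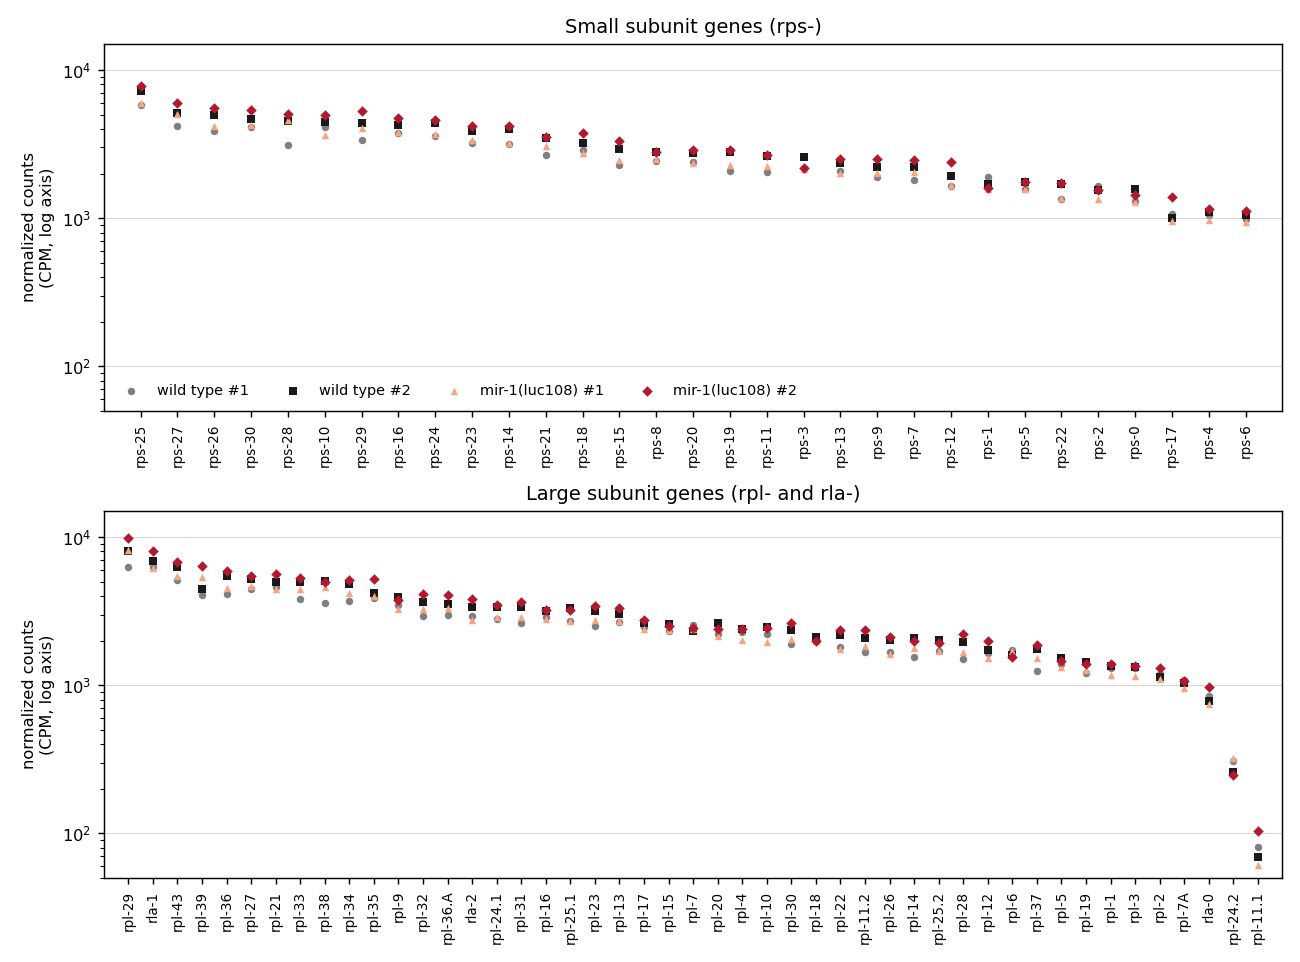
Points give the normalized level (CPM, log axis) of each of the 31 small subunit genes (top) and 47 large subunit genes (bottom) in each of the 4 libraries, ordered by mean level. The points of a gene lie close together compared with the range between genes, #2 (dark square, dark red diamond) is mostly above #1 of its genotype, and rpl-24.2 and rpl-11.1 stand far below the others.

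No ribosomal protein gene passed the test between genotypes in the fit with genotype as its only term. At a false discovery rate of 0.05, edgeR's quasi-likelihood test called 0 of the 78 genes, and 3 of the 5111 genes tested (0.0587%). At an unadjusted p below 0.05 it took 1 of the 78, rpl-39, against 8.2% of all genes tested. DESeq2 called 0 of the 14463 genes in its fit, so its 0 of the 78 is nothing particular to them. It gave 1 of the 78 an unadjusted p below 0.05, a count given without the share over all its genes and not read as a result. The median log2 fold change was 0.07 over the 78 genes (quartiles −0.0094 and 0.13, extremes −0.18 and 0.46) and 0.0030 over all genes tested, with a median standard error of 0.21 for a single ribosomal protein gene. The small subunit had a median of 0.08 and the large subunit 0.05. The log2 fold change was above 0 for 56 of the 78 genes (25 of 31 small, 31 of 47 large subunit genes), beside 50.3% of all genes tested.

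The intervals of this fit bounded the change of single genes, in levels relative to the other genes of a library. The 95% interval of the fold change lay within a factor of 2 of no change for all 78 genes, against 48.3% of all genes tested. It lay within a factor of 1.5 for 58 of the 78, against 405 of the 5111 genes tested. The widest bounds were log2 −0.59 and 0.90. Genes with deep counts have narrow intervals, and the ribosomal protein genes are among the deepest in the table.

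Most ribosomal protein genes differed in the same direction between the libraries of a genotype. In the wild type 68 of the 78 genes were higher in #2 than in #1, by a median of 0.22 on the log2 scale, and in the mutant 76 of 78 were higher in #2, by a median of 0.28. Over all genes tested the medians were 0.01 and 0.0049. Other genes tested with annotated transcripts of 236 to 471 nt had medians of 0.29 and 0.24. Ribosomal protein genes of that length had 0.34 and 0.30. At 476 to 664 nt the medians were 0.03 and 0.13 for other genes and 0.20 and 0.31 for ribosomal protein genes. At 665 to 1334 nt they were −0.00013 and 0.03, and 0.11 and 0.22. The median size of the difference, without regard to sign, was 0.23 between the wild-type libraries, 0.28 between the mutant libraries and 0.09 between genotypes. Over all genes tested these were 0.33, 0.32 and 0.26. A difference between genotypes compares means of 2 libraries and is expected to be smaller than one between single libraries. The median of the 78 log2 fold changes turned to −0.03 without wild type #1 and to −0.08 without mir-1(luc108) #2, with 27 and 13 genes higher in the mutant. It was 0.17 without wild type #2 and 0.20 without mir-1(luc108) #1, with 64 and 66 genes higher. The direction of the median thus rested on which libraries were kept.

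**Figure D3:**
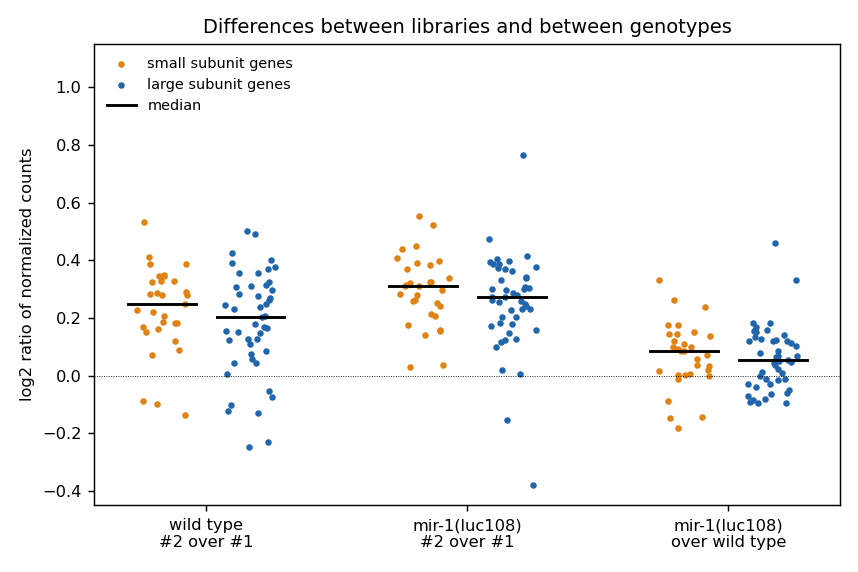
Each point is a ribosomal protein gene (orange, small subunit; blue, large subunit), placed by its log2 ratio between the libraries of the wild type, between the libraries of mir-1(luc108) and between the genotypes, with horizontal spread added for legibility; black bars are medians. Both ratios of #2 over #1 sit above 0 for most genes, with medians over all 78 of 0.22 and 0.28, while the ratio between genotypes has a median of 0.07.

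Genes whose libraries parted by genotype were few. In 3 of the 78 genes, rpl-39, rpl-29 and rps-28, the lower mutant library exceeded the higher wild-type library, beside 19.5% of all genes tested. In 2 of the 78, rps-1 and rpl-18, the higher mutant library lay below the lower wild-type library, beside 18.9% of all genes tested. The remaining 73 overlapped. These shares of the ribosomal protein genes were below the background in both directions.

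Among the genes with the largest fold change upwards, rpl-39 led. It encodes a very small protein that lines the exit tunnel of the large subunit in yeast and mammals, and it lies on chromosome V (7775742 to 7776079, minus strand, build WBcel235) with 2 exons. It measured 4034 and 4495 CPM in the wild type and 5403 and 6342 CPM in the mutant. The mutant libraries were both above the wild-type libraries. The means were 4265 ± 326 and 5873 ± 664 CPM (SD, n = 2), a log2 fold change of 0.46 (SE 0.21, 95% interval 0.02 to 0.90), with an unadjusted p of 0.042 and an adjusted p of 0.584 in edgeR (quasi-likelihood test, Benjamini-Hochberg over all genes tested). With any single library left out the log2 fold change lay between 0.34 and 0.56. With the trend of all genes on transcript length subtracted, it was 0.05. An annotated gene on the opposite strand, grl-10, overlaps rpl-39, and it did not pass the filter on low counts.

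The other genes with both mutant libraries on top were similarly short. rpl-29, a small basic protein of the large subunit and the most abundant of the 78 genes (chromosome IV, 13882225 to 13882618), measured 6254, 8004, 8125 and 9818 CPM. The gap between wild type #2 and mir-1(luc108) #1 was narrow beside the gap within either genotype. Its log2 fold change was 0.33 (SE 0.23, adjusted p = 0.782 in edgeR). rps-28, a small subunit protein near the channel where the mRNA leaves (chromosome IV, 1659691 to 1659997), measured 3134, 4528, 4603 and 5070 CPM. Wild type #1 was the low library, and the other 3 were close together. Its log2 fold change was 0.33 (SE 0.22, adjusted p = 0.779), and it was 0.11 without wild type #1.

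Next among small subunit genes came rps-29 and rps-27, both zinc-binding proteins. rps-29 measured 3364, 4398, 4072 and 5266 CPM (log2 fold change 0.26, SE 0.22, adjusted p = 0.837 in edgeR), and rps-27 measured 4214, 5125, 5017 and 6011 CPM (0.24, SE 0.22, adjusted p = 0.841). In both genes wild type #2 lay above mir-1(luc108) #1, so the genotypes overlapped. In the large subunit rpl-35, which sits at the mouth of the exit tunnel, followed rpl-39 and rpl-29. It measured 3898, 4203, 3990 and 5218 CPM, with mir-1(luc108) #2 alone standing high (log2 fold change 0.18, SE 0.21, adjusted p = 0.903).

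The largest fold changes downwards were smaller and fell on longer genes. rps-1, whose protein lies near the mRNA exit channel, measured 1883 and 1711 CPM in the wild type and 1563 and 1604 CPM in the mutant. Its libraries parted by genotype, with a log2 fold change of −0.18 (SE 0.19, adjusted p = 0.890 in edgeR). rps-2 measured 1652, 1555, 1341 and 1556 CPM (log2 fold change −0.15) and rps-3, which lines the mRNA entry channel, 2182, 2592, 2145 and 2188 CPM (−0.14). Both overlapped between genotypes. In the large subunit the lowest were rpl-10, a late-joining protein near the peptidyl transferase centre, at 2211, 2454, 1956 and 2415 CPM (log2 fold change −0.10), rpl-4, which reaches into the exit tunnel, at 2301, 2397, 2004 and 2402 CPM (−0.09), and rpl-20 at 2229, 2615, 2154 and 2406 CPM (−0.09). For these 3 genes mir-1(luc108) #1 was the low library, and mir-1(luc108) #2 lay above wild type #1. rpl-18, the other gene with both mutant libraries below, measured 2041, 2103, 1975 and 2001 CPM, and its log2 fold change was −0.06. It and the genes named below by role or position were picked after their values were seen.

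The 5 most abundant small subunit genes were rps-25, rps-27, rps-26, rps-30 and rps-28. rps-25, needed for internal initiation at some viral RNAs in yeast and human cells, led them with 5780, 7259, 6005 and 7835 CPM (log2 fold change 0.08). rps-26, at the mRNA exit channel in yeast, measured 3893, 4948, 4222 and 5559 CPM (0.14), and rps-30, made in mammals as a fusion with a ubiquitin-like protein, 4098, 4667, 4263 and 5395 CPM (0.14). In each of the 3 genes, #2 was the higher library of both genotypes and wild type #2 exceeded mir-1(luc108) #1. rps-23, whose protein helps to form the decoding centre, behaved alike at 3193, 3875, 3381 and 4199 CPM (0.10). rps-6, the target of the growth-linked S6 kinase, was among the lowest of the subunit at 990.4, 1053, 943 and 1114 CPM (0.01), with the mutant libraries on either side of the wild type.

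In the large subunit the abundant genes after rpl-29 were rla-1, rpl-43 and rpl-36, beside rpl-39. rpl-43, a zinc-binding protein, measured 5106, 6275, 5476 and 6746 CPM (log2 fold change 0.10) and rpl-36 measured 4145, 5468, 4556 and 5910 CPM (0.12). Both followed the library number more than the genotype. The next genes are given for the role of their proteins. rpl-3, next to the peptidyl transferase centre, measured 1315, 1319, 1147 and 1348 CPM (−0.08), and rpl-5, which binds the 5S RNA, 1387, 1516, 1327 and 1446 CPM (−0.07). rpl-12, at the base of the stalk, measured 1648, 1737, 1518 and 2001 CPM (0.05) and rpl-17, in the wall of the exit tunnel, 2480, 2633, 2404 and 2765 CPM (0.01). In all 4 of these genes the mutant libraries overlapped the wild type, and mir-1(luc108) #1 was the lowest library.

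The stalk, which recruits the elongation factors, is made of the base protein P0 (rla-0) and several copies of P1 and P2 (rla-1 and rla-2). rla-0 measured 841, 784, 748 and 969 CPM, rla-1 6276, 6854, 6160 and 8053 CPM, and rla-2 2912, 3358, 2758 and 3829 CPM. For all 3, mir-1(luc108) #1 was the lowest library and mir-1(luc108) #2 the highest, so the mutant enclosed the wild type. Their log2 fold changes were 0.08 (SE 0.20, adjusted p = 0.965), 0.11 (SE 0.22, adjusted p = 0.950) and 0.07 by edgeR. rla-1 had 7.46, 8.75, 8.24 and 8.31 times the UMI counts of rla-0, and rla-2 had 3.46, 4.28, 3.69 and 3.95 times. The stalk mRNAs were thus unequal in the same order in every library. A gene on the opposite strand, arl-13, overlaps rla-1, and the strand setting of the counting is not stated.

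Some genes share a number, and the members of such a pair were unequal in every library. rpl-11.1, whose protein binds the 5S RNA particle, had only 19, 27, 27 and 33 UMI counts (81.1, 69.2, 61.3 and 104 CPM), against 1678, 2082, 1838 and 2374 CPM for rpl-11.2. It made up 4.61, 3.21, 3.23 and 4.20% of the counts of the pair. The pair rpl-25.1 and rpl-25.2, for a protein at the tunnel exit, was the most even, at 2719, 3309, 2699 and 3226 CPM and 1712, 2031, 1711 and 1938 CPM. rpl-25.2 gave 38.6, 38.0, 38.8 and 37.5% of its pair. With the counts of each pair summed before the fit, the log2 fold changes were 0.16 (rpl-11) and −0.03 (rpl-25). Reads from near-identical stretches could have been split between members of a pair by the counting, so the levels within a pair are uncertain.

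Other names that look paired belong to different proteins. rpl-24.1 encodes a large subunit protein, and rpl-24.2 a protein of the same family that resembles a ribosome biogenesis factor of yeast. rpl-24.1 measured 2805, 3378, 2883 and 3498 CPM (log2 fold change 0.04) and rpl-24.2 307, 259, 320 and 246 CPM (0.02). rpl-24.2 was higher in #1 than in #2 in both genotypes, the reverse of most of the 78 genes. rpl-7 measured 2549, 2328, 2413 and 2421 CPM (log2 fold change −0.01) and rpl-7A 1076, 1037, 961 and 1064 CPM (−0.06). rpl-36.A measured 2993, 3532, 3322 and 4094 CPM (0.18). The mutant libraries overlapped the wild type in each.

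Fold change went with transcript length. Annotated transcripts of the 78 genes had a median length of 527 nt, against 1519 nt over the 5037 genes tested that have a length, and a median of 3 exons against 6. Over the 78 genes, Spearman's rho between log2 fold change and length was −0.73 (−0.78 in the small and −0.69 in the large subunit), and over all genes tested with a length it was −0.20. Levels were also lower for longer transcripts, with a rho of −0.72 between mean CPM and length. The ratio of #2 over #1 went the same way within the wild type (rho −0.64) and within the mutant (−0.35). Whether the slopes between and within genotypes share a cause was not tested. These are descriptions across genes of the same 4 libraries.

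Divided into 3 equal classes by length, the 26 shortest genes (236 to 471 nt) had a median log2 fold change of 0.14 and all 26 were above 0. The middle 26 (476 to 664 nt) had a median of 0.06, with 21 above 0, and the longest 26 (665 to 1334 nt) a median of −0.01, with 9 above 0. Other genes tested in the same ranges of length had medians of 0.28 (266 genes), 0.11 (426 genes) and 0.03 (1364 genes). In all 3 ranges the ribosomal protein genes had the lower median. With the trend of all genes on length subtracted, the median over the 78 genes was −0.08, beside −0.0033 over all genes tested with a length. The split of the 78 turned from 56 higher and 22 lower to 8 higher and 70 lower. This correction used the fit of all 4 libraries and was not repeated with a library left out.

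**Figure D4:**
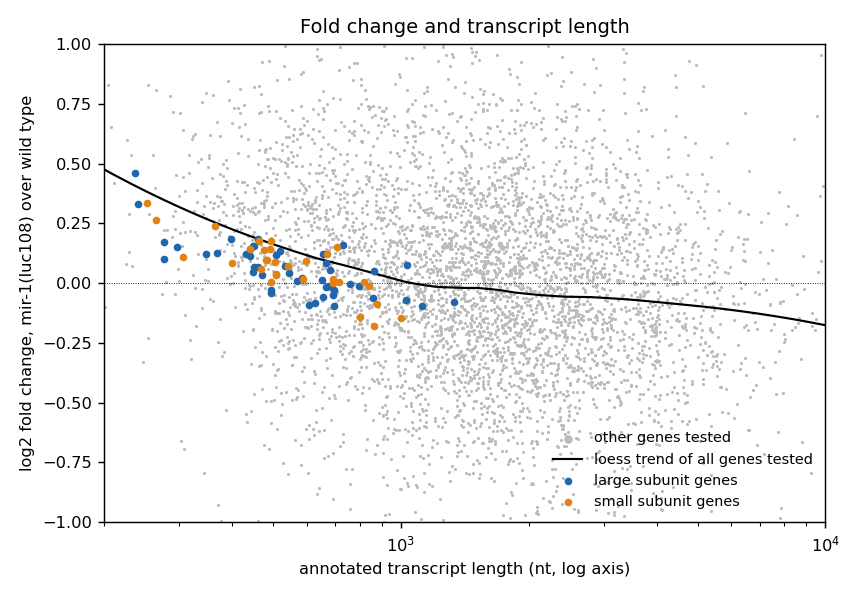
Each point is a gene, placed by its annotated transcript length (nt, log axis) and its log2 fold change (mir-1(luc108) over wild type), with small subunit genes in orange, large subunit genes in blue, other genes tested in grey (244 of them lie outside the axes) and a black loess trend over all genes tested. The ribosomal protein genes slope downwards from rpl-39 at 0.46 to genes below 0 at the long end, and most lie under the trend.

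The genes also shared features of the genome that the name does not give. Where a 3′ untranslated region was annotated (75 of 78), its median length was 56 nt, against 197 nt over all genes tested. A small nucleolar RNA, a guide for the chemical modification of ribosomal RNA, was annotated inside 13 of the 78 genes (16.7%), against 2.16% of all genes tested with a length. These 13 genes had a median log2 fold change of 0.01 and a median level of 2247 CPM, against 0.08 and 2630 CPM for the other 65. The X chromosome held 2 of the 78, rpl-11.2 and rpl-25.1 (2.56%, against 14.1% of genes tested), and chromosomes I, III and IV held 23, 18 and 18. Each of the 2 genes on X has a partner of the same number on an autosome.

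In 3 places a small and a large subunit gene lie head to head with no coding gene between them. rps-10 and rpl-24.1 are 609 bp apart on chromosome I, rps-14 and rpl-36 662 bp apart on chromosome III, and rpl-39 and rps-30 498 bp apart on chromosome V. Their fold changes come from the fit over all genes, and the difference within a pair was not tested. rps-10 measured 4128, 4482, 3654 and 4985 CPM (log2 fold change 0.00), beside 0.04 for rpl-24.1, and rps-14 measured 3189, 3998, 3199 and 4195 CPM (0.04), beside 0.12 for rpl-36. The pair with rpl-39 differed most, at 0.46 against 0.14 for rps-30, and in rps-30 alone of the pair wild type #2 exceeded mir-1(luc108) #1.

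Ribosomal proteins named otherwise were read from the same fit. ubq-2, which carries a large subunit protein fused to ubiquitin, measured 2194, 2894, 2572 and 3277 CPM (log2 fold change 0.20), and ubl-1, which carries a small subunit protein fused to a ubiquitin-like one, 1631, 1944, 1643 and 1916 CPM (−0.01). Both resembled the prefixed genes, with #2 above #1. rack-1, the signalling scaffold on the small subunit, measured 747 and 807 CPM in the wild type and 638 and 666 CPM in the mutant. Its libraries parted by genotype in the downward direction, with a log2 fold change of −0.26 (SE 0.19, adjusted p = 0.804 in edgeR).

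Other lists of the translation apparatus were read beside all genes tested. edgeR called 0.0587% of all genes tested and took 8.2% at an unadjusted p below 0.05. Of 10 elongation and termination factors, 5 were higher and 5 lower in the mutant (median log2 fold change 0.04), and edgeR called 0 of them, with 1 at an unadjusted p below 0.05. eef-1A.1, which brings aminoacyl-tRNA to the ribosome, measured 2873, 2694, 2499 and 2443 CPM (−0.17), and eef-2, which moves the ribosome along the mRNA, 1089, 1083, 909 and 988 CPM (−0.20). In both, the mutant libraries lay below the wild-type libraries, as they did in 1 more of the 10, beside 18.9% of all genes tested. They lay above in eef-1B.2, a subunit of the exchange factor for eEF1A, at 141, 118, 173 and 205 CPM (0.56, the gene with the unadjusted p below 0.05), and in erfa-1, a release factor, at 38.4, 58.9, 61.3 and 82.1 CPM (0.48). Over all genes tested, 19.5% had both mutant libraries above. eef-1B.2 and erfa-1 were chosen after their values were seen. Of 29 initiation factors tested 18 were higher and 11 lower (median 0.12), and of 18 cytosolic aminoacyl-tRNA synthetases 3 were higher and 15 lower (median −0.20). Ribosome biogenesis genes split 8 to 8 among 16 tested (median −0.01), among them fib-1, the fibrillarin that methylates ribosomal RNA, at 350.1, 336, 393 and 540 CPM. Genes for nascent chain and ribosome-associated factors were higher in 1 of 6 (median −0.13). The 49 mitochondrial ribosomal protein genes tested, which serve the separate ribosome of the organelle, split 22 higher to 27 lower (median −0.01). edgeR called 0 genes in each of these lists, with at most 2 at an unadjusted p below 0.05. At the rate over all genes tested (0.0587%), 0 calls in lists of this size is nothing particular to them.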

How the data were processed

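QuantSeq 3′ mRNA libraries of sorted muscle cells were analysed, 2 of the wild type and 2 of mir-1(luc108), and the labels gave each library's genotype. The table deposited by the authors holds UMI counts, made, per the paper's methods, by extracting UMIs with UMI-tools, trimming, mapping to WBcel235 with STAR, discarding duplicates and counting with HTSeq. Versions, annotation release and strand setting are not given in the sources used here. Each molecule gives one 3′ tag, so levels were not divided by length.

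Counts were fitted over the whole table with edgeR's quasi-likelihood test (edgeR 4.0.16, R 4.3.3, TMM factors, filterByExpr with a minimum count of 10, genotype as the only term), with p-values adjusted (Benjamini-Hochberg) over all 5111 genes tested. Ribosomal protein genes were read from that fit, and no test was made over the list. CPM of single genes were computed from the counts with the TMM factors, which lay between 0.977 and 1.04. Sums of markers were scaled by the library total alone. The biological coefficient of variation was 14.8%. The script was tested on simulated counts. Of the 14463 genes, 14208 (98.2%), and all 78 members, were found in Ensembl's annotation 115 (WBcel235), which gave positions and the length of the longest transcript. No pair of libraries agreed within sampling noise.

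The members and lists were chosen with earlier results of these data known. Genes named by rule were the 5 most abundant and the 3 with the largest fold change in each direction in each subunit, all rla- genes, name pairs, and ubl-1, ubq-2 and rack-1. A further 9 were chosen after their values were seen. Of these, rpl-18 was taken because both mutant libraries lay below the wild type, and the others by role or position.

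Alternatives were other normalization factors (RLE, none, TMM without the members), no filter, DESeq2 1.42.0 with and without its fold change prior, a replicate block, a loess length correction (span 0.5), summed gene pairs, and leaving out each library, which takes the spread of a lone library to be that of the other genotype.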

Additional observations from a re-analysis of the deposited data

How the results depend on the processing

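At a false discovery rate of 0.05, RLE factors, no factors and TMM factors without the members called 0 of the 78 genes. Over all 5111 genes they called 5, 2 and 4. Without the filter, 0 of the 78 and 63 of 14463 genes were called. Both DESeq2 fits called 0 of 14463 genes, the 78 among them. The length correction called 0 of the 78 and 4 of 5037 genes. The fit with the replicate number as a block, the replicate block, called 3 (rpl-29, rpl-39 and rps-28), against 87 of 5111 genes in all. Neither the labels nor the paper say whether libraries of equal number were handled together. Deviations of these libraries from their genotype means had a correlation of 0.013 over all genes tested and 0.226 over the 78 genes. A correlation across genes leaves out a shift that the genes share. With the block, the adjusted p of rpl-39 in edgeR fell to 0.000996. The median log2 fold change of the 78 genes kept its sign under every change of factors, filter, tool and block. It turned to −0.082 with the length correction, and the large subunit median to −0.087. With 1 library left out, the median ranged from −0.083 to 0.20 over the 78 genes. It ranged from −0.10 to 0.21 over the small subunit and from −0.071 to 0.19 over the large subunit. The small subunit median minus the large subunit median, 0.031 in the main fit, ranged from −0.029 to 0.053. The small subunit median was −0.074 with the length correction. The cause of these shifts was not tested.

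Of the 41 genes followed singly, none of them called without a block, the length correction turned 22 from above to below 0, where the values were rps-25 −0.14, rps-27 −0.016, rps-26 −0.054, rps-30 −0.037, rps-28 −0.049, rps-29 −0.10, rpl-29 −0.070, rla-1 −0.083, rpl-43 −0.25, rpl-36 −0.15, rpl-35 −0.0013, rla-2 −0.12, rpl-24.1 −0.10, rpl-24.2 −0.10, rpl-36.A −0.044, rps-6 −0.046, rps-23 −0.074, rps-10 −0.16, rps-14 −0.12, rpl-12 −0.036, rpl-17 −0.084 and ubq-2 −0.0039. Genes near 0 also crossed it without the filter (rpl-7 0.018, rpl-25.1 0.00011, ubl-1 0.017), without factors (rpl-7 0.0071, ubl-1 0.0080), with RLE factors (rps-10 −0.00067), in DESeq2 without and with its prior (rps-10 −0.00019 and −0.00018) and with the replicate block (rpl-24.2 −0.0046, rps-10 −0.0096). With 1 library left out, 27 of the 41 crossed 0, with ranges of −0.12 to 0.25 for rps-25, −0.070 to 0.32 for rps-26, −0.042 to 0.29 for rps-30, −0.094 to 0.28 for rla-1, −0.058 to 0.25 for rpl-43, −0.081 to 0.33 for rpl-36, −0.26 to 0.035 for rpl-10, −0.23 to 0.018 for rpl-4, −0.19 to 0.027 for rpl-20, −0.024 to 0.35 for rpl-35, −0.12 to 0.24 for rla-0, −0.19 to 0.27 for rla-2, −0.082 to 0.064 for rpl-7, −0.27 to 0.48 for rpl-11.1, −0.037 to 0.32 for rpl-11.2, −0.10 to 0.18 for rpl-24.1, −0.20 to 0.19 for rpl-24.2, −0.16 to 0.12 for rpl-25.1, −0.14 to 0.086 for rpl-25.2, −0.12 to 0.11 for rps-6, −0.067 to 0.24 for rps-23, −0.24 to 0.20 for rps-10, −0.17 to 0.21 for rps-14, −0.20 to 0.020 for rpl-3, −0.16 to 0.23 for rpl-12, −0.091 to 0.10 for rpl-17 and −0.13 to 0.12 for ubl-1. Summing a gene pair turned no fold change. With 2 libraries a genotype, the median standard error of a log2 fold change was 0.21, which limits what a single gene can show.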
